A study of Mus musculus with 5 samples.

Results

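Integrins are adhesion receptors built from an alpha and a beta chain, and this account follows 10 of their genes in Langerhans cells, the dendritic cells of the epidermis. The genes are Itgax, Itgam, Itgal, Itgav, Itgae and Itga4 (6 alpha chains) and Itgb1, Itgb2, Itgb7 and Itgb8 (4 beta chains). They were taken by symbol, with no use of their values, and all 10 matched a row of the 27179 genes counted. Each library was made from RNA of 5000 purified cells, taken from C57BL/6 skin at an age of 1 week. The mice were wild type (2 libraries, replicates 1 and 2) or Suz12 cKO, a conditional knockout of Suz12 (3 libraries, replicates 1 to 3). Suz12 encodes an essential part of Polycomb repressive complex 2, which methylates histone H3 at lysine 27. What drives the deletion is not given in the sources used here, and neither is whether a library pools mice.

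Only a chain that finds its partner reaches the cell surface. The beta chain of Itgb2 pairs with the products of Itgal, Itgam, Itgax and Itgad, the leukocyte integrins that bind ICAM proteins, complement fragments and fibrinogen. The chain of Itgb7 pairs with those of Itgae, a receptor for E-cadherin, and Itga4, a receptor for VCAM1 and MAdCAM1. Itgb1 pairs with many alpha chains and mediates adhesion to matrix, while the pair of Itgav and Itgb8 is known for releasing active TGF-beta, on which Langerhans cells depend.

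The counts assigned to genes came to between 12090062 and 25725900 per library, and 3 counts, the floor used for a gene without counts, correspond to 0.106 to 0.257 CPM (counts scaled by the TMM-normalised library size). Suz12 had 88 and 39 counts in wild type and 0, 0 and 7 counts in cKO, in the direction of the labels; the counts do not show which exons they came from. The Langerhans cell gene Cd207 lay at 6613 CPM or more and Epcam at 1038 CPM or more in every library. The source field of the labels names alveolar macrophages instead, but of 7 markers of that cell Siglecf, Car4, Chil3 and Fabp1 had no count in any library; Ear2 and Plet1 had counts in all 5 and Marco in wild type, chiefly replicate 1. Transcripts typical of other cells were present: 12 of 13 T cell markers had counts, among them Cd3d, Cd3e and Cd3g in every library, and together they reached 581 and 767 CPM in wild type against 329 to 1024 CPM in cKO. Keratinocyte markers (11 of 12 with counts) summed to 267 and 601 CPM in wild type against 590.4 to 978 CPM in cKO. Intervals and floors refer to counting error alone, since reads amplified by PCR and lacking molecular identifiers cannot be taken as separate molecules.

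Genes rich in CG dinucleotides around their start are the usual targets of Polycomb repressive complex 2, so the 250 bases before the start are shown for 4 of the 7 members with an entry. They come from RefSeq on GRCm38.p6, 5′ to 3′ on the strand of the gene, with each CG in capitals and the start as that table gives it. Itgax (chr7:128129300-128129549, plus strand) and Itgam (chr7:128062390-128062639, plus strand) are close neighbours and the most abundant alpha chains, Itgb1 (chr8:128685404-128685653, plus strand) is the steadiest chain in wild type, and Itgb8 (chr12:119238277-119238526, minus strand) is the chain that was almost undetected.
Itgax: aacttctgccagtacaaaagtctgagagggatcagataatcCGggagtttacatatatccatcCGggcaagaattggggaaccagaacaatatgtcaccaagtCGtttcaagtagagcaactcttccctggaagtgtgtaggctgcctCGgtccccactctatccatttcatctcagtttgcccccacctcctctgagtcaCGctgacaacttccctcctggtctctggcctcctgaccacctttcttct
Itgam: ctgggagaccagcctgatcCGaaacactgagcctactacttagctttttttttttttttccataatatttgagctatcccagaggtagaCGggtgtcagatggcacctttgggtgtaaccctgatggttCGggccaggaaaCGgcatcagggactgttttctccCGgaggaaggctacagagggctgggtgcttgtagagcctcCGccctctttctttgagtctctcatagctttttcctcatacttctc
Itgb1: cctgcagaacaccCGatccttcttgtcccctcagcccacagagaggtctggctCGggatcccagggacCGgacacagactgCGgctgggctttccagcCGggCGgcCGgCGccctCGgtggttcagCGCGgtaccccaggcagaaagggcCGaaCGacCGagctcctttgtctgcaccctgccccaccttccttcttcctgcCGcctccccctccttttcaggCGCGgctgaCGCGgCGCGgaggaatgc
Itgb8: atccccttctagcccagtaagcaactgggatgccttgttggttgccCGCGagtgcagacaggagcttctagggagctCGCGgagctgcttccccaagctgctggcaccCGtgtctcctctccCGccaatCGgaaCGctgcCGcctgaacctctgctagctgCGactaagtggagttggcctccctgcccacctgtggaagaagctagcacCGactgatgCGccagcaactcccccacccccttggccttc
In the same build Itgal at chr7:127296139-127335137, Itgav at chr2:83722303-83806917, Itgae at chr11:73090505-73147449, Itga4 at chr2:79255426-79333114, Itgb2 at chr10:77530329-77565708 and Itgb7 at chr15:102215994-102233405 are the remaining members. Itgb1 has 21 CG in this window, a number reached by 16.3% of 32851 such windows of all genes, and Itgb8 has 12, reached by 33.5%. Itgax has 5 and Itgam 6, against a median of 6. The letters GAGGAA, the core of many sites of the myeloid factor PU.1, hold no CG and were searched on both strands. They stand in the windows of Itgam, Itgav and Itgb1, 3 of these 7 members, and in 23.3% of all windows. Such a match is a description of the letters and not a site.

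Among the 10 members the detected beta chains stood highest. In wild type, per length (RPKM, CPM divided by the gene's length in kilobases), Itgb1 stood highest at 39.5 and 40.8 RPKM in replicates 1 and 2, above 79.0% of the genes tested. Itgb2 followed at 32.4 and 12.6 RPKM and Itgb7 at 18.1 and 15.3 RPKM. Itgb1 lay above Itgb2 in both libraries with ranges apart, whereas Itgb2 and Itgb7 changed places between the 2 libraries and cannot be ordered. Itgb8 had no count in either.

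Among the alpha chains Itgax, the CD11c chain by which dendritic cells are commonly recognised, and Itgam, the CD11b chain of myeloid cells, shared the top. Itgax stood at 12.2 and 4.32 RPKM and Itgam at 6.45 and 9.82 RPKM, so their means of 8.28 ± 5.61 and 8.14 ± 2.38 RPKM (SD, n = 2) are not distinguishable and their order differed between replicates. Both lay apart from the remaining alpha chains among the members. Itgal, the CD11a chain, had 3.10 RPKM in replicate 1 and no count in replicate 2. The matrix receptor chain Itgav had 2.59 and 0.191 RPKM, and Itgae, the CD103 chain, 2.46 RPKM and no count. The ranges of Itgal, Itgav and Itgae overlap, and so do those of Itgae and Itga4, which had no count and 5 counts. Among the members, each of the top alpha chains thus had a mean level per length below that of each of the 3 detected beta chains. Outside the members, Itga5 stood at 6.54 and 1.64 RPKM and Itgb5 at 7.16 and 6.80 RPKM in wild-type replicates 1 and 2. Itga5 thus lay above Itgam in replicate 1, and the Itgb5 mean of 6.98 RPKM lay below those of Itgax and Itgam.

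**Figure D1:**
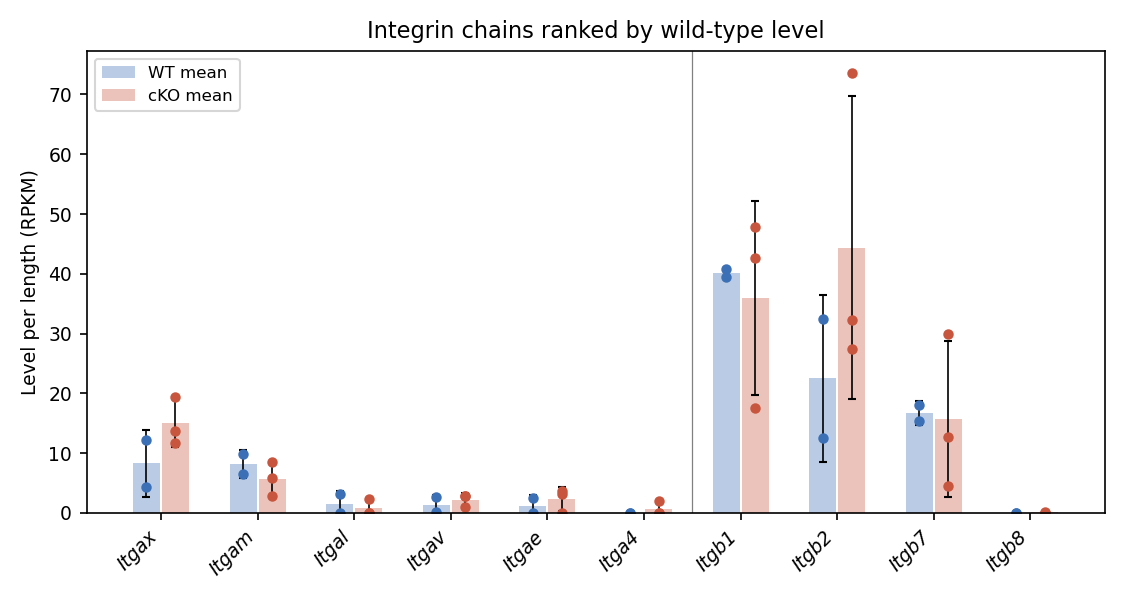
Level per length (RPKM) of the 10 integrin chains, ordered within alpha and beta chains by the wild-type mean. Bars are group means, whiskers 1 SD, points single libraries (2 wild type, 3 cKO). Itgb1, Itgb2 and Itgb7 exceed the alpha chains in mean level, and Itgal, Itgav, Itgae, Itga4 and Itgb8 lie near 0.

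In wild type, Itgb2 and its partners were closer to balance than Itgb1 or Itgb7 and theirs. The summed level of Itgal, Itgam, Itgax and Itgad was 21.9 RPKM beside 32.4 RPKM of Itgb2 in wild-type replicate 1, or 67.7% of the beta chain, and 113% in wild-type replicate 2. In cKO it was 72.3%, 40.1% and 76.7% in replicates 1 to 3. The lowest value belongs to cKO replicate 2, where Itgb2 stood at 73.6 RPKM, its highest level. Pairs that these transcripts could form in both wild-type libraries are thus Itgax with Itgb2 and Itgam with Itgb2, and Itgal with Itgb2 only where Itgal was detected. Transcript levels do not show which pairs were made.

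**Figure D2:**
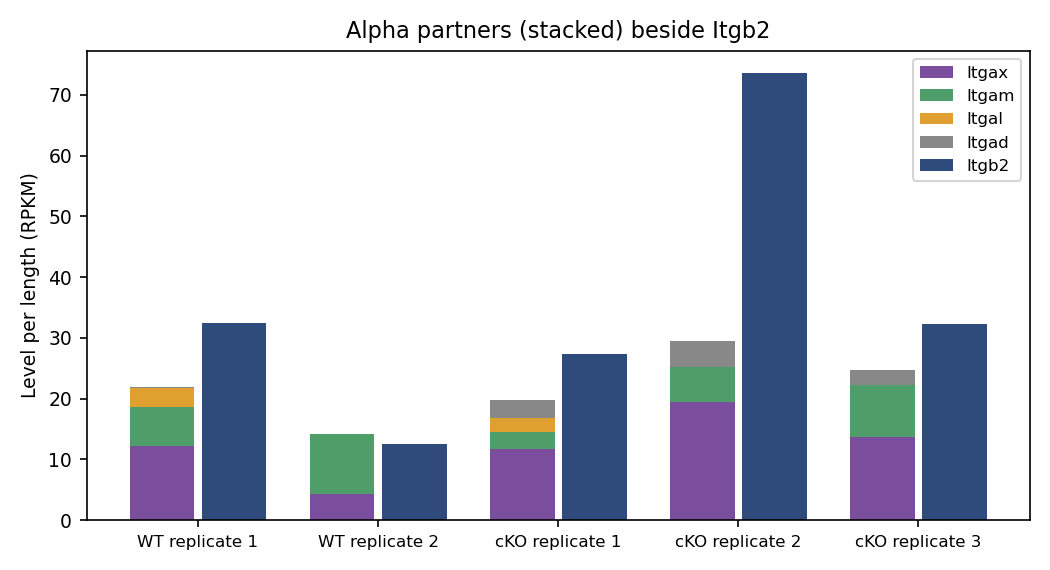
Level per length (RPKM) in each library of the alpha partners of Itgb2, stacked, beside Itgb2 itself. Itgax and Itgam make up most of the stack in every library, Itgal shows only in wild-type replicate 1 and cKO replicate 1, and Itgb2 is highest in cKO replicate 2.

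For Itgb1 and Itgb7 the measured partners fell well short of the beta chain in wild type. The 12 alpha chains that can pair with Itgb1 summed to 9.38 and 3.64 RPKM, 23.8% and 8.93% of Itgb1, and in cKO to 24.3%, 31.7% and 66.5%. Itga5, the fibronectin receptor chain, carried much of this sum, at 28.6 and 7.16 CPM in wild type against 24.3, 40.0 and 29.8 CPM in cKO. In wild-type replicate 2, Itga7 stood at 1.78 RPKM beside 1.64 RPKM of Itga5, and Itga7 was counted in no other library. Itgae and Itga4 together made 13.6% and 0.195% of Itgb7 in wild type. In cKO they made 81.2% in replicate 1, none in replicate 2, where neither had a count while Itgb7 stood at 30 RPKM, and 41.5% in replicate 3. For Itgb7 the cKO shares lay on both sides of the wild-type shares. For Itgb1 each cKO share lay above both wild-type shares, the nearest being 24.3% against 23.8%, and the difference was not tested.

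The pair of Itgav and Itgb8 could not be seen in wild type. Itgb8 had 0 counts in 4 libraries and 11 counts in cKO replicate 1 (0.686 CPM, exact Poisson 95% interval 0.342 to 1.23). For 0 counts the same interval reaches 0.194 and 0.217 CPM in wild-type replicates 1 and 2. Its counted length was 3096 bases, against 8403 bases of its longest coding transcript in GENCODE vM21. Reads from any uncounted part would not appear. Itgav was counted in all 5. Another partner of Itgav, Itgb5, was more abundant, at 23.5 and 22.3 CPM in wild type against 0, 42.6 and 19.6 CPM in cKO replicates 1 to 3. Itgb6, which also pairs with Itgav and activates TGF-beta in epithelia, had no count in any library.

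The genotypes were then compared, asking which chains differ in Langerhans cells without Suz12. None of the 10 chains had cKO libraries all above or all below wild type, whereas 19.0% of the 9988 genes tested did. Of the 8 chains with enough counts to test, 4 lay higher and 4 lower in cKO, with a median log2 fold change of 0.30 against 0.06 over all genes. edgeR's quasi-likelihood test called 0 of the 8 at an adjusted p of 0.05, and called 0% of all genes. At an unadjusted p of 0.05 it gave 0 of the 8 and 4.15% of all genes, and DESeq2, which called 2.12% of the genes it adjusted, also gave 0 of the 8 by either p. The intervals below therefore say how large a difference could still be present; a p that misses the threshold does not show equal levels. The series calls its libraries biological replicates, without saying whether each came from a separate mouse.

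Itgb2 had the smallest p of the chains. It lay at 92.8 and 36.1 CPM in wild type against 78.3, 211 and 92.5 CPM in cKO. Wild-type replicate 2 was low and cKO replicate 2 high, with the remaining 3 libraries close together. The fitted log2 fold change was 0.98 (standard error, SE, 0.65; 95% interval -0.57 to 2.53, edgeR unadjusted p = 0.176, adjusted p = 0.999), and it was 0.41 without cKO replicate 2, 0.47 when wild-type replicate 2 was left out and 1.82 when wild-type replicate 1 was.

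Itgax followed the same pattern over libraries. It lay at 49.3 and 17.4 CPM in wild type against 47.2, 78.1 and 55.3 CPM in cKO. Wild-type replicate 2 was again the low library and cKO replicate 2 the high one, and wild-type replicate 1 lay within the cKO range. Wild-type replicate 2 also held the most of 6 melanocyte markers, which summed to 427 CPM there, 39.5 CPM in wild-type replicate 1 and 49.7, 32.6 and 143 CPM in cKO. Among them Mlana lay at 85.4 CPM and Tyr at 51.0 CPM in that library, and neither had a count in wild-type replicate 1; their part in the Itgax and Itgb2 values was not tested. The fitted log2 fold change was 0.85 with an SE of 0.68 (95% interval -0.78 to 2.49, edgeR adjusted p = 0.999). It fell to 0.30 without wild-type replicate 2 and was 1.80 without wild-type replicate 1. By root mean square distance of centred log2(CPM + 1) values over the 5 libraries, the genes most like Itgax among 2610 were Fyttd1 (0.10), Nr4a2 (0.11) and Alg5 (0.12), against a median distance of 0.90.

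Itgam, on the same chromosome and 11 kb from Itgax, differed from it over the libraries. It lay at 30.2 and 46.0 CPM in wild type against 13.3, 27.4 and 39.8 CPM in cKO, so that its lowest library, cKO replicate 1, was not the lowest of Itgax. The fitted log2 fold change was -0.50 with an SE of 0.83 (95% interval -2.47 to 1.46, edgeR adjusted p = 0.999). The ratio of Itgax to Itgam per length was 1.90 and 0.44 in wild type and 4.12, 3.32 and 1.62 in cKO, a mean log2 difference of 1.62. Leaving out wild-type replicate 2 gave 0.56, and leaving out wild-type replicate 1 gave 2.67. The exact two-sided permutation p was 0.4, adjusted to 0.4 over 3 ratios tested. With 2 against 3 libraries the smallest p this test can give is 0.2. Of 10 monocyte and macrophage markers 9 had counts, with Lyve1 at 0. They summed to 2857 and 1611 CPM in wild type against 684, 1217 and 869 CPM in cKO. Lyz2 held most of both wild-type sums, at 2093 and 1077 CPM against 526, 637 and 498 CPM. Every cKO library lay below wild type for 4 of the 8 markers tested, and for 10.2% of all genes tested. C1qa (196 and 155 CPM against 65.9, 273 and 145 CPM) and Cd163 overlapped between the genotypes. The part of such cells in these integrin values was not tested. Of 9 neutrophil markers, 5 had no count in any library, S100a9 among them. Csf3r, the receptor for G-CSF, had 9.41 and 13.0 CPM in cKO replicates 1 and 2, 1 count in wild-type replicate 1 and none in the others. S100a8 had 6.24 CPM in cKO replicate 3 alone and Ltf 3.64 CPM in wild-type replicate 1 alone. Ly6g had 1 count each in wild-type replicate 2 and cKO replicate 2.

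Itgb1 was even in wild type and uneven in cKO. It lay at 165 and 171 CPM against 200.4, 179 and 73.3 CPM, with cKO replicates 1 and 2 above wild type and replicate 3 far below. The fitted log2 fold change was -0.16 with an SE of 0.48 (95% interval -1.31 to 1.0, edgeR adjusted p = 0.999) and turned to 0.18 without cKO replicate 3. The interval is the narrowest of the 8. Keratinocytes also express Itgb1. The library with the least Itgb1, cKO replicate 3, had 819 CPM of keratinocyte markers, of which Krtdap held 335 CPM and Krt10 117 CPM. Krt5, Krt14 and Krt15 lay at 29.0, 144 and 48.4 CPM there, and at 17.6, 89.1 and 16.6 CPM in wild-type replicate 1. That wild-type library had the smallest sum of keratinocyte markers, 267 CPM, and 165 CPM of Itgb1. The part of keratinocytes in the Itgb1 values was not tested. The genes most like Itgb1 over the libraries were Rbm34 (distance 0.11), the mitophagy receptor gene Bnip3l (0.13) and Dynlt3 (0.16), among 2609 with a median distance of 0.71. The ratio of Itgb1 to Itgb2 per length was 1.22 and 3.24 in wild type and 1.75, 0.58 and 0.54 in cKO, so Itgb2 was the leading beta chain in cKO replicates 2 and 3. The mean log2 difference was -1.28, or -0.57 and -1.99 when wild-type replicate 2 or 1 was left out. Titles are written in 2 styles, and the difference was -0.27 among the 3 libraries of the first (wild-type replicate 1, cKO replicates 1 and 2) and -2.58 between the other two. The exact permutation p of this ratio was 0.4, and that of Itgal, Itgam and Itgax summed over Itgb2 was also 0.4.

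Itgb7 varied most among the abundant chains. It lay at 48.4 and 40.9 CPM in wild type against 12, 80.2 and 34.0 CPM in cKO, so cKO libraries lay on both sides of wild type. It differed by -0.08 on the log2 scale (SE 0.87; 95% interval -2.15 to 1.98, edgeR adjusted p = 0.999), and its sign depended on which library was left out. Itgb7 is also a chain of lymphocytes and mast cells. Of 9 mast cell markers, Cpa3, Mcpt4, Cma1, Tpsb2, Fcer1a and Ms4a2 had no count in any library, and Kit reached 2.23 CPM in wild-type replicate 2 and had no count in cKO. Hdc lay at 9.52 CPM in cKO replicate 2 alone, and Gata2 at 5.78 CPM there and 2.22 CPM in cKO replicate 3. The library with Hdc and the most Gata2 is the one with the most Itgb7; the part of such cells was not tested.

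**Figure D3:**
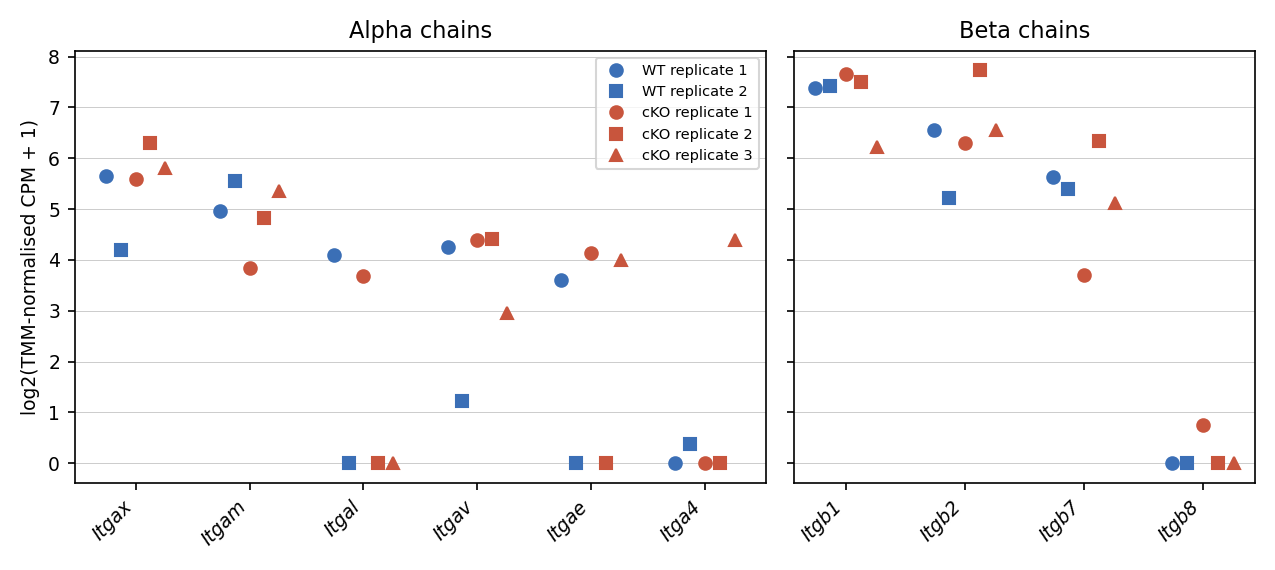
Level of each integrin chain on the log2(CPM + 1) scale, each point 1 library (blue, wild type; red, cKO; shapes, replicates). Itgb1, Itgb2, Itgb7, Itgax and Itgam are seen in every library with overlapping groups, while Itgal, Itgae, Itga4 and Itgb8 drop to 0 in some libraries of both genotypes.

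The scarcer alpha chains were on in some libraries and at 0 in others, in both genotypes. Itgal had 307 counts (16.2 CPM) in wild-type replicate 1 and 191 (11.9 CPM) in cKO replicate 1, and 0 counts in wild-type replicate 2 and cKO replicates 2 and 3. Itgae had 213 counts (11.2 CPM) in wild-type replicate 1, 268 (16.7 CPM) in cKO replicate 1 and 174 (14.9 CPM) in cKO replicate 3, and none in the other two. Itga4 had 5 counts in wild-type replicate 2 and 233 counts (19.9 CPM) in cKO replicate 3, and none elsewhere; it was too low to test. A level near 10 CPM or more beside a 0 is far outside counting error. For 0 counts in the shallowest library, cKO replicate 3, the exact Poisson 95% interval reaches 0.315 CPM.

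This is common among genes of such levels. Of the 3 tested chains with a mean under 20 CPM, Itgal and Itgae lay at 10 CPM or more in 1 library and under 1 CPM in another, as did 59.5% of all genes in that range and 36.8% of all genes tested. None of the 5 tested chains with a higher mean did, against 10.6% of genes there. The standard errors of the log2 fold changes were 3.78 for Itgal (-1.03, 95% interval -10.06 to 8.01) and 3.35 for Itgae (0.91, 95% interval -7.09 to 8.90), fitted values that depend on the zeros. Itgav lay at 18.2 and 1.35 CPM in wild type against 19.9, 20.4 and 6.76 CPM in cKO, and the fitted change was 0.68 (log2, SE 1.81); it was -0.21 without wild-type replicate 2, the low library.

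Itgal and Itgae are strongly expressed by skin T cells. The T cell markers summed to 767, 581, 1024, 474 and 329 CPM in wild-type replicates 1 and 2 and cKO replicates 1 to 3. The 2 libraries with the largest sums are those with Itgal, whereas Itgae was also present in cKO replicate 3, which had the smallest sum. Trdc, the constant region of the delta chain of epidermal gamma-delta T cells, lay at 95.8 and 23.9 CPM in wild type against 43.8, 16.6 and 9.15 CPM in cKO. Not every T cell marker followed the sums. In wild-type replicate 2, without Itgal, Cd3d, Trbc1 and Trbc2 lay at 67.4, 23.8 and 26.1 CPM. In cKO replicate 1, with Itgal, they lay at 41.6, 1.43 and 15.0 CPM. Cd3e, Cd3g, Trac, Trdc, Cd2 and Il7r were higher in cKO replicate 1, where Cd3g held 538 CPM and Il7r 256 CPM. Other dendritic cells also carry Itgax, and some carry Itgae. Their 6 markers reached 879 and 500.5 CPM together in wild type, against 119.8, 209.7 and 219.8 CPM in cKO. Of these, Cd209a lay at 667 and 419 CPM against 38.8, 133 and 136 CPM, and Clec9a at 51.0 and 17.3 CPM against 0, 2.19 and 0.513 CPM. Cd209a made up most of both wild-type sums. Xcr1, Flt3, Clec10a and Zbtb46 overlapped between the genotypes, with fitted log2 fold changes of -0.61, -0.74, -0.41 and 1.07. Cd209a was called by DESeq2 (adjusted p = 0.0087) and not by edgeR (adjusted p = 0.968). The part of T cells and of other dendritic cells in the integrin values was not tested, and in bulk libraries fewer cells of a type and less RNA per cell cannot be told apart.

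**Figure D4:**
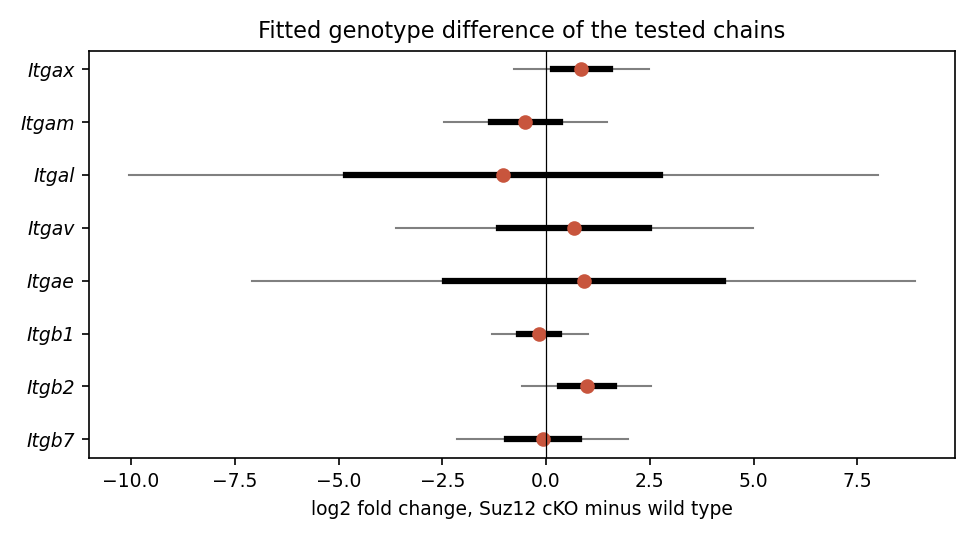
Fitted log2 fold change (cKO minus wild type) of the 8 tested chains, with 1 standard error (thick bar) and the 95% interval (thin line). Every interval spans 0; that of Itgb1 is the narrowest and those of Itgal and Itgae reach beyond 7 on both sides.

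Of the 17 other integrin chains, 8 had no count in any library: Itga1, Itga2, Itga3, Itga9, Itga10, Itga11, Itgb4 and Itgb6. Itga3, a laminin receptor chain, and Itgb4, the chain of hemidesmosomes, are textbook integrins of basal keratinocytes. Itga5 and Itgb5 were the only others with a mean of at least 10 CPM, and 6 of the 17 could be tested, 5 higher and 1 lower in cKO, with none called. Over all genes tested 5246 lay higher and 4742 lower. The split among the 6 depends in part on the filter. Itgb2l, with no wild-type count, passed it through cKO libraries alone, so its p-values carry that selection. Itga2b and Itga7, counted in wild-type replicate 2 alone, and Itga8, counted in cKO replicate 3 alone, were not tested. Itga6, likewise an integrin of basal keratinocytes, was counted. It had 1.05 CPM in wild-type replicate 1, 13.5 and 6.28 CPM in cKO replicates 1 and 2, and no count in the other libraries.

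Itgad, the next gene after Itgax at a distance of 23.3 kb and a partner of Itgb2, was picked out after its values were seen. It had 11 and 4 counts in wild type (0.58 and 0.235 CPM) and 185, 481 and 118 counts in cKO (11.5, 17 and 10.1 CPM). With 4 counts in wild-type replicate 2, under the filter's minimum of 10, Itgad would not have been tested without its cKO libraries. Its p-values carry that selection by the genotype in which it was high. Each cKO value exceeded both wild-type values, as for 8.87% of all genes tested, and the fitted log2 fold change of 4.96 carried an SE of 2.58 (edgeR unadjusted p = 0.0962, adjusted p = 0.981; DESeq2 unadjusted p = 0.00126, adjusted p = 0.0577). The longest coding transcripts of Itgad and Itgax in GENCODE vM21 share 240 stretches of 75 bases, the length of a read, or 5.95% of those of Itgad, and no other pair of the 27 integrin chains shares any. Counts of Itgad were 1.18% and 1.35% of those of Itgax in wild type and 24.4%, 21.7% and 18.2% in cKO. How the authors treated reads that match both genes is not given in the sources used here. Itgb2l, a relative of Itgb2 and likewise picked out afterwards, had no count in wild type or cKO replicate 3 and 12.7 and 12.6 CPM in the other 2 cKO libraries (edgeR unadjusted p = 0.079, adjusted p = 0.968). These are the libraries in which Csf3r, a neutrophil marker given above, was also counted above the floor. S100a8 and Ltf, from the same marker list, were counted in cKO replicate 3 alone and wild-type replicate 1 alone. The part of neutrophils in the Itgb2l values was not tested.

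The proteins that switch integrins on were examined next. Of 16 such genes 12 were tested, 7 higher and 5 lower (median log2 fold change 0.28) and none called. Itgb1bp1, which binds the tail of the Itgb1 chain and restrains it, lay at 149 and 125 CPM in wild type against 38.1, 73.5 and 41.8 CPM in cKO, with each cKO library lower, as for 10.2% of genes. Its fitted log2 fold change was -1.42 (SE 0.46, edgeR unadjusted p = 0.0192, adjusted p = 0.968). Cyth1, a regulator of adhesion through Itgb2, lay at 27.4 and 11.9 CPM against 81.2, 58.2 and 36.5 CPM, and its binding partner Cytip at 760.5 and 517 CPM against 1139.8, 811 and 855 CPM, both with all cKO libraries higher and neither called. Groups did not overlap for 5 of the 12 tested, beside 19.0% of all genes tested. The others of the 5, Fermt3 and Sharpin, were named after their values were seen. Fermt3 (kindlin-3) lay at 89.8 and 121 CPM against 138, 218 and 138 CPM. Sharpin, an inhibitor of integrins, lay at 39.5 and 38.0 CPM against 14.6, 6.59 and 0 CPM.

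Among 24 genes of signalling from integrins, 18 were tested, 9 higher and 9 lower (median log2 fold change -0.01) and none called. Lims1, an adaptor of the integrin-linked kinase complex, lay at 165 and 148 CPM in wild type against 93.4, 60.5 and 31.0 CPM in cKO. All cKO libraries were lower, as for 10.2% of all genes tested. The fitted log2 fold change of Lims1 was -1.34 with an SE of 0.52 (edgeR unadjusted p = 0.0392, adjusted p = 0.968). The next by p, Actn4 and Skap2, had log2 fold changes of 0.57 and -0.33 with standard errors of 0.65 and 0.42.

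Of 15 ligand genes 7 were tested, 5 higher and 2 lower (median log2 fold change 0.66) and none called. Spp1, which encodes osteopontin, a ligand of Itgav integrins, lay at 313 and 420.2 CPM in wild type against 952, 518 and 625 CPM in cKO. Mfge8, another ligand of Itgav integrins, lay at 2800.2 and 2543 CPM against 3945, 5295 and 3442 CPM. Both had all cKO libraries above wild type, as for 8.87% of all genes tested. Their log2 fold changes were 0.93 and 0.66, with standard errors of 0.36 and 0.29 (edgeR adjusted p = 0.968 each). Icam1, named after its values were seen, went the other way, at 95.4 and 77.3 CPM against 72.9, 71.1 and 61.7 CPM. Every cKO library lay below wild type for 10.2% of all genes tested. Cdh1, the E-cadherin to which the Itgae chain binds, lay at 112 and 136 CPM against 68.5, 486 and 148 CPM, spread on both sides of wild type. Vcam1 and Madcam1, the ligands of Itga4 integrins, had no count in any library.

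In the TGF-beta list 10 of 14 genes were tested, 7 higher and 3 lower (median log2 fold change 0.40) and none called. Tgfb1 lay at 19.5 and 17 CPM in wild type against 10.9, 36.8 and 14.3 CPM in cKO, and Tgfb2 and Tgfb3 had no count. Nrros, which holds latent TGF-beta on myeloid cells for release by Itgav integrins, lay at 13.6 and 76.2 CPM against 22.4, 79.3 and 133 CPM. Smad2, a signal transducer of the pathway, differed by 0.69 on the log2 scale (SE 0.75). Ltbp1, a binding protein of latent TGF-beta, had counts in cKO replicates 2 and 3 alone, at 2.93 and 2.57 CPM.

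**Figure D5:**
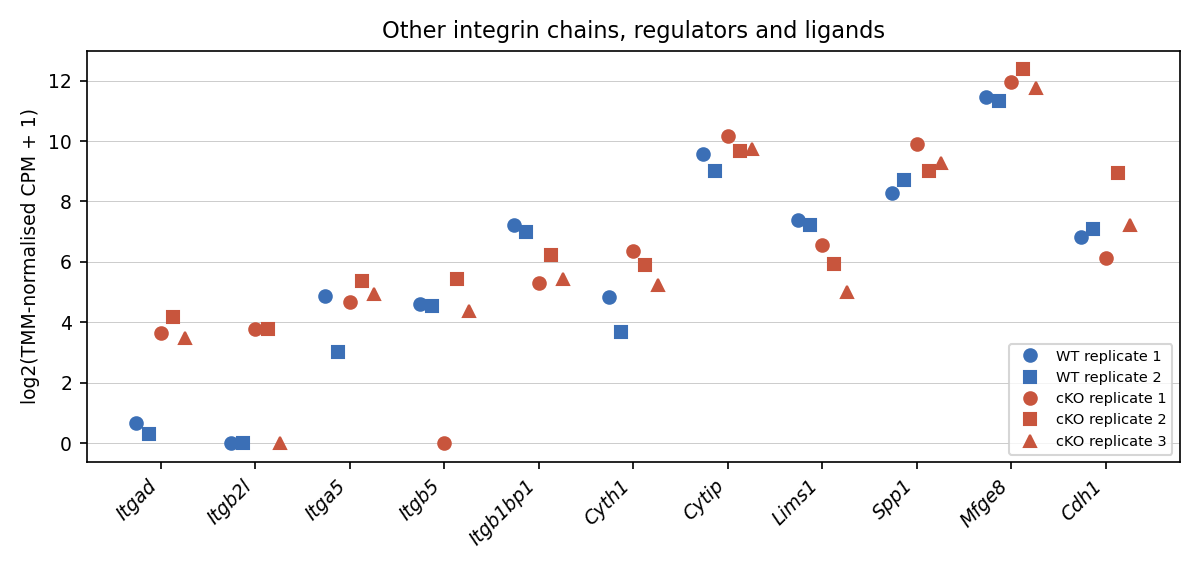
Level on the log2(CPM + 1) scale of other integrin chains, regulators and ligands, each point 1 library (blue, wild type; red, cKO). Itgad, Cyth1, Cytip, Spp1 and Mfge8 lie higher in all 3 cKO libraries, Itgb1bp1 and Lims1 lower, and Itga5, Itgb5 and Cdh1 overlap; none was called.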

How the data were processed

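The authors deposited raw counts per gene for 5 libraries, made with featureCounts and the mm10 build, as the submitters' processing notes list them, with a gene length in bases per the file headers. The sources used here do not give the aligner, the strand setting or the treatment of reads that match several genes. Symbols came from RefSeq (GRCm38.p6, 25275 of 27179 identifiers) and GENCODE vM21 (18). The 5 per-sample files were identical to the series table, and no same-group pair of libraries agreed within counting noise (chi-square 161.4 to 375.6 per degree of freedom).

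Genes were filtered with filterByExpr (minimum count 10) and tested with edgeR 4.0.16 (R 4.3.3), TMM factors and a robust quasi-likelihood fit over all 5 libraries, adjusted over 9988 genes by Benjamini-Hochberg, threshold 0.05. Changes are log2, cKO over wild type; standard errors were derived from the F statistic. Chain ratios used an exact two-sided permutation test over all 10 splits, in scipy 1.17.1. Alternatives: upper-quartile and RLE factors, DESeq2 1.42.0, other filters, limma-voom (limma 3.58.1), other edgeR settings, a replicate block, title style as a term, each library left out, and other lengths. The fits were tested on simulated counts.

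The members and lists were chosen with earlier results of these data known. Named were all members, Suz12, other integrins with a mean of at least 10 CPM, and the 3 genes of each pathway list with the smallest p; also, for the top alpha and beta chain, the 3 closest genes whose mean reached 50 CPM. Figures were drawn with matplotlib 3.10.9.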

Additional observations from a re-analysis of the deposited data

How the results depend on the processing

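No integrin chain was called under any of the 15 alternatives to the genotype fit, and 110 of 119 refitted log2 fold changes kept their direction; Itgax, Itgam and Itgb2 kept it in every refit. Over all genes, edgeR without a block and limma-voom called 0, DESeq2 called 191 and the fit with a replicate block called 1 (Il10). Under the replicate block Itgb1 turned from -0.16 to 0.17, and no chain was called. Same-numbered libraries deviated from their group means with correlations of -0.03 and -0.02. With 2 wild-type libraries the wild-type deviations mirror each other, so these values cannot decide whether the numbers pair libraries. With edgeR's newer setting Itgb7 turned from -0.08 to 0.08. Leaving out 1 library each gave -2.05 to 9.18 for Itgal, -0.21 to 3.54 for Itgav, -0.11 to 10.59 for Itgae, -0.39 to 0.18 for Itgb1 and -0.96 to 0.38 for Itgb7. The cause was not tested. With the style of the titles as a term no chain was called. Without wild-type replicate 1, 3 of the 10 chains kept their rank within alpha or beta chains, and without wild-type replicate 2, 10 did. With GENCODE lengths 8 did, since Itgae (1.46 RPKM) passed Itgav (1.39 RPKM). Wild-type means of Itgb1 were 44.1 with those lengths and 45.8 as TPM, and that of Itgb7 19.2 as TPM. The ratios of Itgav to Itgb8, Itgae to Itga4, and Itgae with Itga4 to Itgb7 were not tested, since 1 side had no counts above the floor in some libraries. Within the 2 shared replicate numbers, a replicate block chosen after seeing the data, the mean log2 differences were -0.92 for Itgal, Itgam and Itgax over Itgb2, 2.02 for Itgax over Itgam and -0.98 for Itgb1 over Itgb2 (exact permutation p of 0.5, 0.5 and 1.0, where 0.5 is the smallest possible). Leaving out 1 library gave -1.09 to -0.35, 0.56 to 2.67 and -1.99 to -0.57 for these, with the direction kept. Depth limits what is said of chains at 0, and for Itgb8 so does its counted length.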
